A study of Homo sapiens with 4 samples.

Results

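The genes of cholesterol and fatty acid synthesis were compared between MIA PaCa-2 cells that overexpress ING3 and control cells. MIA PaCa-2 is an established human pancreatic carcinoma line, and ING3 belongs to the NuA4/TIP60 complex, which acetylates histones. The ING3 cells carried FLAG-ING3 in a lentiviral vector with a CMV promoter, and the control cells carried a GFP lentivirus. Both were selected for stable expression and grown in high-glucose medium with fetal bovine and horse serum. Each group was measured on 2 HG-U133 Plus 2.0 arrays of total RNA, a and b, which the submitters call technical duplicates, so each p-value below sets a difference against technical spread between 1 cell population per group. The 41 genes were listed by name, 21 genes of the sterol steps and 20 of the fatty acid and glycerolipid steps. They were listed with earlier results of these data known. The series held 19775 genes with a probe set of 1 symbol. Of the 41 genes, 37 had such a probe set, and the brightest over all 4 arrays stood for the gene. CYP51A1, FADS1, FDFT1 and ACSL3 were not analysed here, the first pair because their probe sets carry a second symbol. A further pair, MVD and STARD4, fell under the limit on dim genes (a mean signal of 64.6), which left 35 tested genes, 17 of the sterol steps and 18 of the fatty acid and glycerolipid steps.

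Cholesterol is built from acetyl-CoA through mevalonate, farnesyl diphosphate, squalene and lanosterol, and fatty acids are built from acetyl-CoA and malonyl-CoA by acetyl-CoA carboxylase and fatty acid synthase, then elongated, desaturated and joined to glycerol. The membrane-bound transcription factors encoded by SREBF2 and SREBF1 drive most genes of the sterol and fatty acid arms. When sterols are plentiful, INSIG proteins hold these factors in the endoplasmic reticulum through their escort SCAP, and INSIG1 is itself a target of the factors. SREBF factors bind sterol regulatory elements and some E-boxes, often beside a CCAAT box bound by NF-Y.

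The promoter windows of the 3 genes called by the test (FA2H, TM7SF2 and ABHD3), of INSIG1, whose probe sets all had higher means in ING3 cells, and of SREBF2, the member whose window held a sterol regulatory element, are shown here because the SREBF factors act through such promoters. They are RefSeq windows of 300 bases of GRCh38.p14 at chr16:74774771-74775070 (minus strand), chr11:65111622-65111921 (plus strand), chr18:21704725-21705024 (minus strand, the first of 2 windows of the gene), chr7:155297628-155297927 (plus strand) and chr22:41832855-41833154 (plus strand). Capitals mark matches, on either strand, to the sterol regulatory element (ATCAC, any base, CCAC), the E-box CACGTG and the CCAAT box CCAAT. No matches overlapped in these windows.
FA2H: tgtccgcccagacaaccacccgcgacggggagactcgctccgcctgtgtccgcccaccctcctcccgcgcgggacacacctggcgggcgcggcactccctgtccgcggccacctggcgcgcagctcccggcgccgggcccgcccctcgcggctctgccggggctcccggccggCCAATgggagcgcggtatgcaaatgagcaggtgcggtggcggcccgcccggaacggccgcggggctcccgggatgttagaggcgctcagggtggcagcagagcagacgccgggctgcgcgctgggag
TM7SF2: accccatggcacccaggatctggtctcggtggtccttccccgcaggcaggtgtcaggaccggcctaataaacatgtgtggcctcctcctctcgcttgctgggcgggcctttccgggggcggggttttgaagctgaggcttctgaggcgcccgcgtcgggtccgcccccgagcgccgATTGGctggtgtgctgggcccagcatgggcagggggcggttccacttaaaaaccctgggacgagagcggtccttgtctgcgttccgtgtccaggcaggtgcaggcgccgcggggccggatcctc
ABHD3: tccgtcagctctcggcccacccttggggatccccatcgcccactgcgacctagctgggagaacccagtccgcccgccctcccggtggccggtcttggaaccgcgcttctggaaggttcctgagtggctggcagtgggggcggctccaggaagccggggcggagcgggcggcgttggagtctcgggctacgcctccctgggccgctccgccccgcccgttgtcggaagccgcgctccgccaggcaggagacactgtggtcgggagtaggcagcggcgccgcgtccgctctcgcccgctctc
INSIG1: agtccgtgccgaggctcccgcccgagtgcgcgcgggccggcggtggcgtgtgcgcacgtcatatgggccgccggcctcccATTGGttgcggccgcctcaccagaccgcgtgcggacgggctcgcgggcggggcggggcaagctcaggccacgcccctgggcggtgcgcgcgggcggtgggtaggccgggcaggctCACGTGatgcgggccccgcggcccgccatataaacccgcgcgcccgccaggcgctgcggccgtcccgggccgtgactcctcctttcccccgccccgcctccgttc
SREBF2: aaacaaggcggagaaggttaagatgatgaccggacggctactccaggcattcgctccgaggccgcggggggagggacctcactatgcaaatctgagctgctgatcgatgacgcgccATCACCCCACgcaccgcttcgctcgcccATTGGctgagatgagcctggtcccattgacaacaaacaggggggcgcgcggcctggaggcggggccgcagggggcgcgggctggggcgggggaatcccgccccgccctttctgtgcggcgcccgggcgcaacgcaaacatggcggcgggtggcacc
Among the 52 windows listed for 35 of the 41 genes, the CCAAT box was found in 30 (57.7%), against 34.6% of all 35116 windows. The E-box was found in 5 (9.62%), against 7.26% of all windows, in the genes ELOVL5, INSIG1, LSS and SC5D. The sterol regulatory element as spelled here was found in 1 window (1.92%), that of SREBF2, against 0.154% of all windows. The FA2H and TM7SF2 windows each held 1 CCAAT box and neither of the other motifs, and the ABHD3 window shown held none of the motifs. These are matches of letters in a window and were not tested as binding sites.

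Of the 35 tested genes, 1 rose (FA2H), 2 fell (TM7SF2 and ABHD3) and 32 were not called by limma at an adjusted p under 0.05. Over all 12190 tested genes 1.5% were called, 1.03% as higher and 0.476% as lower in ING3 cells. FA2H and ABHD3 stand at the edges of fatty acid metabolism, in hydroxylation and in phospholipid breakdown, and TM7SF2 is a reductase of the late sterol steps. None of the tested enzymes that carry acetyl-CoA to palmitate or to squalene was called. In RNA from whole cultures, fewer expressing cells and less RNA per cell cannot be told apart.

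FA2H, which adds a hydroxyl group to fatty acids destined for sphingolipids, had signals of 393 and 366 in ING3 cells, against 189 and 186 in control cells. Both ING3 arrays lay far above both control arrays. The mean was 379 ± 19.2 in ING3 cells and 187 ± 2.68 in control cells (SD, n = 2 each), a rise of 2.02-fold (log2 difference 1.01, SE 0.17, 95% interval 0.63 to 1.39, limma adjusted p = 0.026). Its other probe set, which was dim, had signals of 75.1 and 82.9 in ING3 cells, against 92.9 and 58.7 in control cells. Those groups overlapped, and the log2 difference of that probe set was 0.094 (SE 0.36), so both the call and the size for FA2H rest on 1 probe set.

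TM7SF2 encodes a sterol reductase that acts on an early intermediate between lanosterol and cholesterol, a reaction that the nuclear envelope protein LBR also carries out. It had signals of 730 and 703 in ING3 cells, against 1051 and 1149 in control cells. The ING3 arrays were close together and both below the control arrays. TM7SF2 was 1.53-fold lower in ING3 cells, at 717 ± 19.0 in ING3 cells and 1100 ± 69.6 in control cells (SD, n = 2 each; log2 difference -0.62, SE 0.098, limma adjusted p = 0.022). It was read by a single probe set. LBR had a log2 difference of -0.19 (SE 0.065) and was not called (limma adjusted p = 0.17).

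ABHD3, a phospholipase that acts on phosphatidylcholine, had signals of 1000 and 1053 in ING3 cells, against 1589 and 1589 in control cells. The control duplicates were nearly equal and the ING3 arrays lay well below them. ABHD3 was 1.55-fold lower in ING3 cells, at 1027 ± 37.2 in ING3 cells and 1589 ± 0.20 in control cells (SD, n = 2 each; log2 difference -0.63, SE 0.082, limma adjusted p = 0.011). It too was read by a single probe set. The list of genes was drawn up with calls from these data known, so the 3 calls are not independent support for the pathway.

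The calls rested on the variance model and on both control arrays. Without control array a, without control array b, or with a variance prior that ignores signal level, none of the 3 genes was called, with adjusted p between 0.16 and 0.24, although the direction stayed. Across all 12 alternatives the adjusted p ranged from 0.0015 to 0.24 for ABHD3, from 0.0052 to 0.24 for TM7SF2 and from 0.0079 to 0.31 for FA2H, and FA2H was also not called when either ING3 array was left out (adjusted p = 0.075 without array a and 0.066 without array b). TM7SF2 and FA2H were also not called by limma without the filter on dim genes (adjusted p = 0.053 and 0.071) or with the mean over all probe sets of a gene (0.055 and 0.31).

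**Figure D1:**
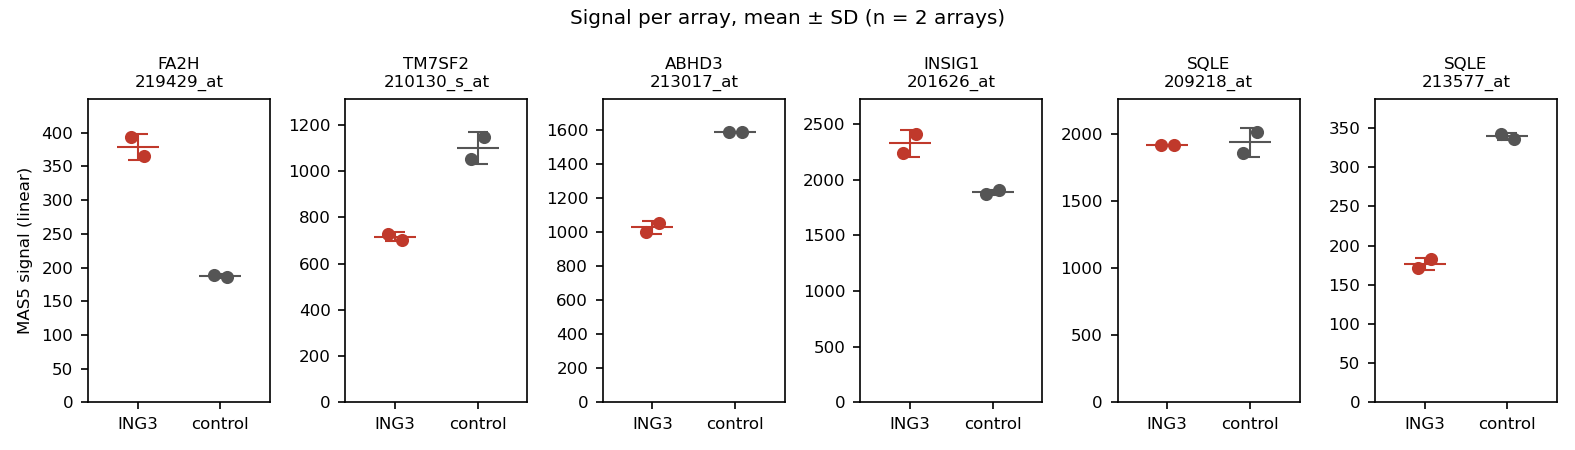
MAS5 signal (linear, axes from 0) on each array for FA2H, TM7SF2, ABHD3, INSIG1 and 2 probe sets of SQLE, with ING3 cells in red and control cells in grey; points are arrays and bars the mean ± SD (n = 2 arrays). The arrays of the groups stand apart in every panel except the brightest SQLE probe set, where both ING3 arrays (1919 and 1919) lie between the control arrays (1858 and 2012).

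Between acetyl-CoA and HMG-CoA no gene was called. HMGCS1, the cytosolic HMG-CoA synthase and a textbook SREBF2 target, had signals of 836 and 808 in ING3 cells, against 795 and 816 in control cells. The groups overlapped, and the log2 difference was 0.029, with a 95% interval of -0.19 to 0.25. ACAT2, the thiolase that makes acetoacetyl-CoA, had a log2 difference of 0.15 (SE 0.080), and its groups did not overlap.

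From mevalonate to farnesyl diphosphate the genes differed in direction and none was called. IDI1, which interconverts the isoprenoid building blocks, had signals of 1940 and 1923 in ING3 cells, against 1481 and 1638 in control cells. The groups did not overlap (log2 difference 0.31, SE 0.080, limma adjusted p = 0.093). Its probe set name ends in _x_at, which marks probes that may match other transcripts, and its 3 other probe sets past the limit had log2 differences of 0.16, -0.032 and -0.31. PMVK, phosphomevalonate kinase, had 1389 and 1373 in ING3 cells, against 1623 and 1624 in control cells (log2 difference -0.23, SE 0.077, limma adjusted p = 0.16). FDPS, farnesyl diphosphate synthase, had 4638 and 4592 in ING3 cells, against 5294 and 5086 in control cells (log2 difference -0.17, SE 0.060, limma adjusted p = 0.19). Both PMVK and FDPS were lower on both ING3 arrays than on either control array. MVK, mevalonate kinase, had a log2 difference of -0.025 on its brightest probe set, and of -0.16 and -0.88 on its others past the limit. MVD, the mevalonate diphosphate decarboxylase, was too dim to test, with signals of 42.4 and 48.1 in ING3 cells, against 7.98 and 29.1 in control cells.

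SQLE, squalene epoxidase, a flux-controlling enzyme of the sterol arm, gave different answers by probe set. Its brightest probe set had signals of 1919 and 1919 in ING3 cells, against 1858 and 2012 in control cells. The ING3 values lay between the control values, and the log2 difference was -0.011, with a 95% interval of -0.18 to 0.16. A dimmer probe set had 172 and 183 in ING3 cells, against 342 and 337 in control cells. That probe set was 1.91-fold lower in ING3 cells (log2 difference -0.94, SE 0.17) and missed the threshold in a fit over all 22559 probe sets past the limit (limma adjusted p = 0.058). The other SQLE probe sets had log2 differences of -0.10 and -0.22. The probe positions were not used here, so which part or form of the SQLE transcript each probe set reads was not tested. LSS, which closes the sterol ring system, had a log2 difference of -0.019 (SE 0.069).

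In the steps from lanosterol to cholesterol, 5 of the 7 tested genes had a lower and 2 a higher mean in ING3 cells, and TM7SF2 was the called gene among them. The means of MSMO1, EBP, HSD17B7 and NSDHL, which trim methyl groups and move the double bond, were lower by small amounts, with log2 differences of -0.10, -0.14, -0.074 and -0.064. For MSMO1, EBP and HSD17B7 the groups did not overlap, and for NSDHL they did. DHCR7, the reductase that makes cholesterol from its last precursor, had signals of 1479 and 1839 in ING3 cells, against 1170 and 1462 in control cells. The lower ING3 array barely exceeded the higher control array, and the duplicates of each group differed widely (log2 difference 0.33, SE 0.13, limma adjusted p = 0.22). Its second probe set had a log2 difference of 0.067. SC5D, a desaturase of the same steps, had a log2 difference of 0.025 (SE 0.079).

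INSIG1, the sterol-sensing retention protein, had signals of 2237 and 2411 in ING3 cells, against 1868 and 1903 in control cells. Both ING3 arrays were above both control arrays, and the log2 difference was 0.30 (SE 0.074, 95% interval 0.13 to 0.47), but INSIG1 was not called (limma adjusted p = 0.082). Its other probe sets had log2 differences of 0.37 and 0.41. One had 1041 and 1054 in ING3 cells, against 824 and 798 in control cells. The other had 383 and 328 in ING3 cells, against 291 and 244 in control cells, so on each of the 3 INSIG1 probe sets the groups were apart in the same direction. They read the same RNA on the same arrays and are not independent replicates. SREBF2 had 265 and 397 in ING3 cells, against 255 and 312 in control cells. The groups overlapped (log2 difference 0.20, SE 0.22), and its other probe sets had log2 differences of -0.24 and -0.080, so no direction can be given for SREBF2. STARD4, a sterol carrier, was too dim to test, with signals of 35.8 and 30.9 in ING3 cells, against 25.1 and 3.69 in control cells.

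**Figure D2:**
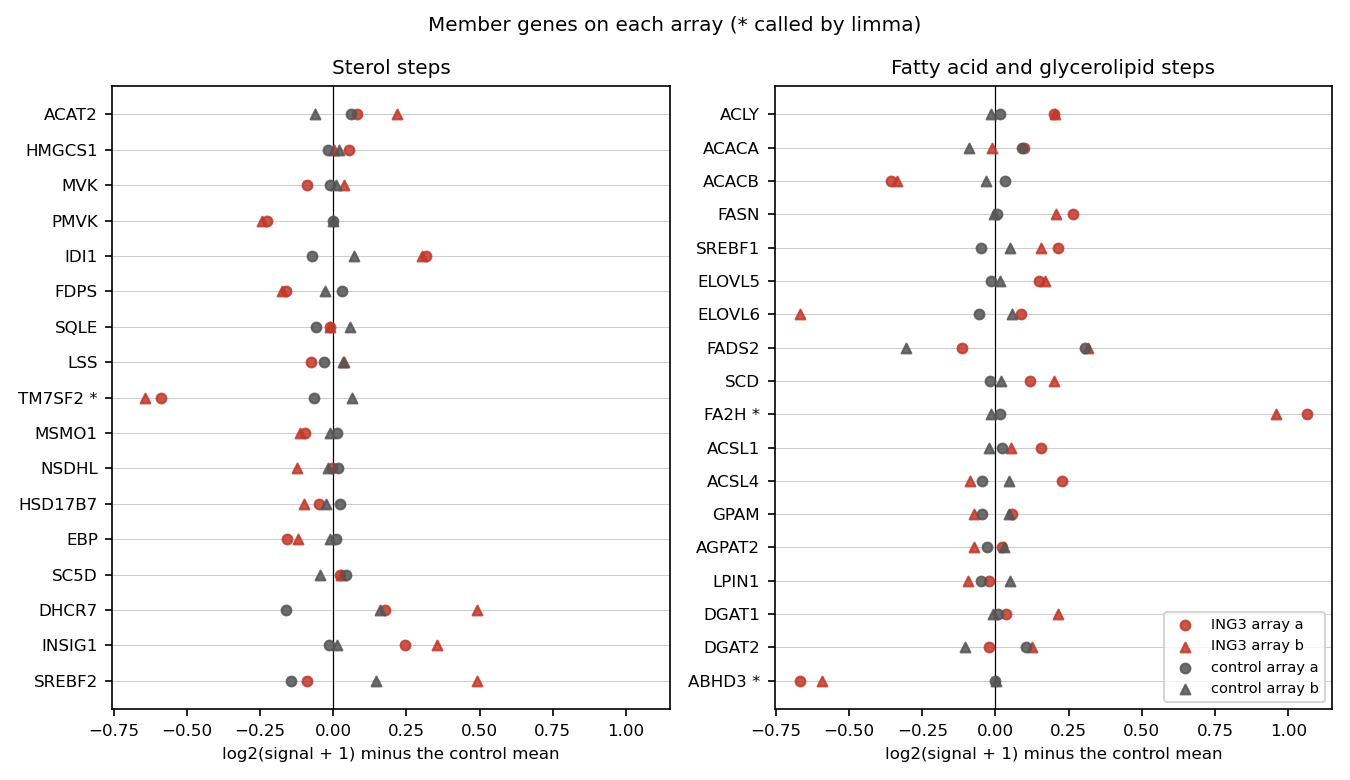
Each array's log2(signal + 1) minus the mean of the control arrays for the 35 tested genes, sterol steps on the left and fatty acid and glycerolipid steps on the right, in pathway order; red marks ING3 cells, grey marks control cells, circles array a and triangles array b. TM7SF2 and ABHD3 stand out to the left and FA2H to the right, and for 20 of the 35 genes the red and grey marks do not overlap.

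From acetyl-CoA to palmitate, 3 of the 4 tested genes had a higher mean in ING3 cells and none was called. ACLY, which makes cytosolic acetyl-CoA from citrate, had signals of 10386 and 10411 in ING3 cells, against 9153 and 8947 in control cells. The duplicates were close and the groups apart (log2 difference 0.20, SE 0.054, limma adjusted p = 0.10), whereas its other probe sets had log2 differences of 0.066 and -0.049. FASN, fatty acid synthase, had 851 and 816 in ING3 cells, against 710 and 705 in control cells (log2 difference 0.24, SE 0.099, limma adjusted p = 0.26). Its groups did not overlap. ACACA, the acetyl-CoA carboxylase of lipogenesis, had 2751 and 2548 in ING3 cells, against 2737 and 2415 in control cells. The groups overlapped on this probe set (log2 difference 0.042, SE 0.082) but not on its second, which had a log2 difference of 0.35 (SE 0.12). ACACB, the mitochondrial carboxylase that restrains fatty acid oxidation, had 295 and 300 in ING3 cells, against 388 and 370 in control cells (log2 difference -0.35, SE 0.15, limma adjusted p = 0.26). The 3 other ACACB probe sets past the limit had log2 differences of -0.18, -0.11 and -0.0070.

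SREBF1, whose protein drives the fatty acid arm, had signals of 1316 and 1264 in ING3 cells, against 1097 and 1173 in control cells. The groups did not overlap, and the log2 difference was 0.18 (SE 0.086, 95% interval -0.0092 to 0.38, limma adjusted p = 0.30). Its second probe set had a log2 difference of 0.065.

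Among the tested members that are elongases or desaturases, SCD, ELOVL5 and FADS2 had a higher mean in ING3 cells and ELOVL6 a lower mean. This direction did not extend to the desaturases of the companion list described below. There FADS3, SCD5 and DEGS1 had lower means, with log2 differences of -0.32, -0.18 and -0.28. Their groups did not overlap and none was called. The elongase ELOVL7 of that list had 0.036, with overlapping groups. SCD, the desaturase that makes oleate from stearate, had signals of 25133 and 26594 in ING3 cells, against 22894 and 23447 in control cells. The groups did not overlap (log2 difference 0.16, SE 0.054, limma adjusted p = 0.18), and the 3 other SCD probe sets had log2 differences of 0.12, 0.23 and 0.53. ELOVL5, which elongates polyunsaturated fatty acids, had 14349 and 14559 in ING3 cells, against 12806 and 13069 in control cells (log2 difference 0.16, SE 0.053, limma adjusted p = 0.16). The duplicates were close and the groups did not overlap. ELOVL6, which elongates palmitate, had 471 and 279 in ING3 cells, against 426 and 461 in control cells, so its log2 difference of -0.29 (SE 0.22) came from 1 ING3 array. Without ING3 array b that difference was 0.087. FADS2, which starts the desaturation of polyunsaturated fatty acids, overlapped between groups (log2 difference 0.10, SE 0.25).

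The acyl-CoA synthetases ACSL1 and ACSL4, which activate free fatty acids, had log2 differences of 0.10 (SE 0.078) and 0.071 (SE 0.13). Of the 6 genes listed under glycerolipid assembly only ABHD3 was called, and it is a phospholipase rather than an assembly enzyme. GPAM and AGPAT2, acyltransferases that add the acyl chains of phosphatidate, had log2 differences of -0.0072 (SE 0.10) and -0.026 (SE 0.079). LPIN1, the phosphatase that turns phosphatidate into diacylglycerol, had -0.057 (SE 0.069), and the triglyceride-forming DGAT1 and DGAT2 had 0.12 (SE 0.17) and 0.051 (SE 0.15). The groups overlapped for all genes of this paragraph except ABHD3, ACSL1 and DGAT1. For GPAM a dimmer probe set had a log2 difference of -0.41 (SE 0.20), and for LPIN1 the other probe sets had 0.038 and 0.31.

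The median log2 difference was -0.019 over the 17 tested genes of the sterol steps and 0.086 over the 18 of the fatty acid and glycerolipid steps, against -0.0074 over all tested genes. The mean was higher in ING3 cells for 7 of 17 and for 12 of 18 genes in these arms, and for 48.3% of all tested genes. Genes at least as bright as the median member had a median of 0.029, and 59.2% of them had a higher mean. The difference between the arms was not tested.

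**Figure D3:**
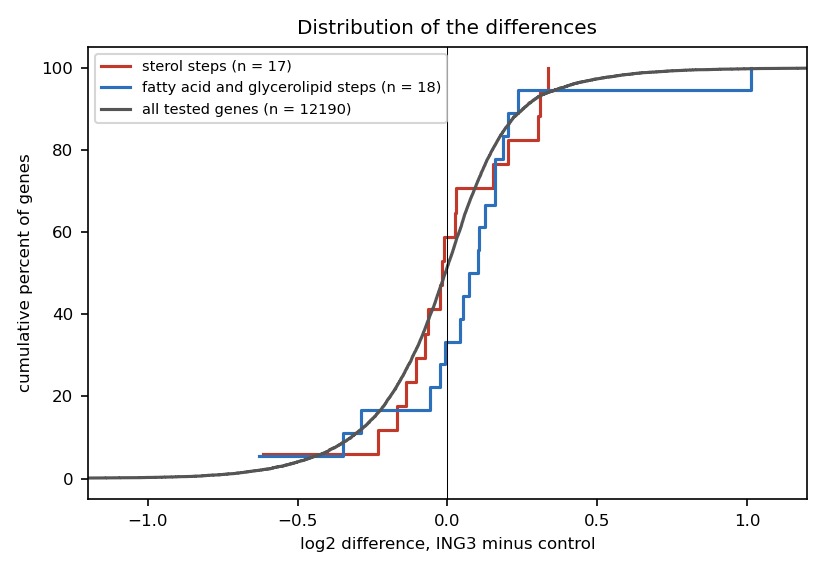
Cumulative percent of genes against the log2 difference, ING3 minus control, for the sterol steps (red, n = 17), the fatty acid and glycerolipid steps (blue, n = 18) and all 12190 tested genes (grey), with the axis limited to -1.2 to 1.2. The sterol curve runs near that of all genes, with a median of -0.019, and the fatty acid curve lies to the right of it over its middle, with a median of 0.086.

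An unadjusted p under 0.05 was reached by 13 of the 35 tested genes (37.1%), the 3 called genes and 10 others (7 with a higher and 3 with a lower mean in ING3 cells), against 17.7% of all tested genes and 23.7% of the genes at least as bright as the median member. The groups did not overlap for 20 of 35 (57.1%), against 49.2% of all tested genes and 55.5% of the bright ones, so that share is near the background. ING3 arrays were above for 12 and below for 8 of these, against 24.3% above and 24.9% below over all tested genes. The difference between groups exceeded the gap between the duplicates of both groups for 19 of 35 genes (54.3%), against 36.9% of all tested genes. The median gap between duplicates was 0.082 in ING3 cells and 0.058 in control cells for the members, against 0.12 and 0.11 for all tested genes (log2). The members' duplicates were thus closer than those of all tested genes, and the part of this in the share past an unadjusted p was not tested. The members were also listed with earlier results of these data known, so that share is not independent support for the pathway.

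Probe sets of the same gene disagreed for 8 of the 24 genes with another probe set past the limit on dim signals, and for 16 all others had the same direction as the brightest. The genes with at least 1 probe set in the other direction were ACLY, ACSL4, ELOVL5, ELOVL6, IDI1, LPIN1, LSS and SREBF2. Of 75 member probe sets past the limit, the probe set fit called 3 (the brightest of FA2H, TM7SF2 and ABHD3), against 0.479% of all 22559 probe sets.

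**Figure D4:**
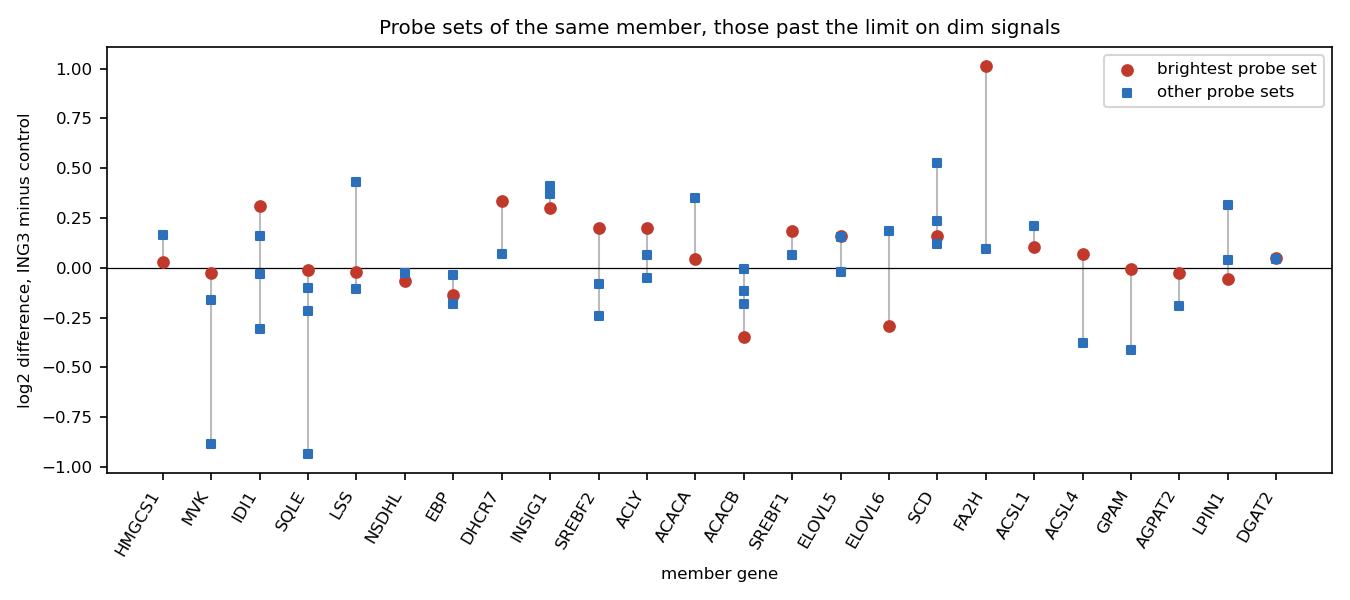
Log2 difference, ING3 minus control, of every probe set past the limit on dim signals for the 24 genes with more than 1; red circles are the brightest probe set and blue squares the others, joined by a line. INSIG1, SCD, DGAT2, ACACA, ACSL1, DHCR7, HMGCS1, SREBF1 and FA2H have all probe sets above 0, and those of FA2H span 0.094 to 1.01. Those of SQLE span -0.94 to -0.011.

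A companion list of 52 genes of lipid supply, sensing and phospholipid synthesis held 40 tested genes, of which 1 (2.5%) rose, 0 fell and 39 were not called by limma, against 1.5% called over all tested genes. An unadjusted p under 0.05 was reached by 11 of the 40 (27.5%), the called gene and 10 others (4 with a higher and 6 with a lower mean), against 17.7% of all tested genes. The 4 higher in ING3 cells were ABCG1 (log2 difference 0.81), TECR (0.30), CERS2 (0.23) and NPC2 (0.14). The 6 lower were AGPAT4 (-0.70), FADS3 (-0.32), PCYT1A (-0.31), DEGS1 (-0.28), CHKA (-0.28) and LBR (-0.19). GPAT3, an acyltransferase of the endoplasmic reticulum that starts glycerolipid assembly, rose 1.32-fold. It had signals of 5335 and 4764 in ING3 cells, against 3870 and 3748 in control cells (log2 difference 0.40, SE 0.071, limma adjusted p = 0.030). No gene of the series was called without the intensity trend, so the GPAT3 call rests on the variance model as well. The median log2 difference of the list was 0.032. This list too was chosen with earlier results of these data known, so its shares are not independent support. SCAP, the escort of the SREBF factors, had a log2 difference of 0.029 (SE 0.094), and the proteases MBTPS1 and MBTPS2, which release them, had 0.13 (SE 0.073) and 0.11 (SE 0.063). INSIG2, the relative of INSIG1, had 0.047 (SE 0.088).

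The arrays had equal trimmed mean signals, and the ACTB control probe sets, which gauge RNA integrity, gave a ratio of 3' over 5' signal of 2.05 and 2.03 in ING3 cells and 2.58 and 1.80 in control cells. The GAPDH control probe sets gave a ratio of 0.90 and 0.92 in ING3 cells and 0.93 and 0.91 in control cells. The part of RNA integrity in the results was not tested. ING3 itself, on its brightest probe set, had a log2 difference of 0.58 (SE 0.13, limma adjusted p = 0.071) and was not called over all genes. Whether that probe set reads the FLAG-ING3 transcript of the vector was not tested. The epithelial keratins KRT8, KRT18 and KRT19 and vimentin were past the limit (KRT8 and KRT19 rose), and EPCAM was under the limit. Of 16 measured markers of other cell types (acinar, endocrine, leukocyte, endothelial, fibroblast, fat and liver), 5 were tested and 0 called by limma (2 at an unadjusted p under 0.05). Their summed signal was 4719 to 4897 in ING3 cells and 5444 to 5745 in control cells, most of it from the collagen gene COL1A2, and the fat and liver markers ADIPOQ, PLIN1, ALB and APOA1 were all under the limit.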

How the data were processed

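RNA was profiled on 4 arrays (2 ING3, 2 control, groups from the titles). The deposited values are linear signal intensity per probe set (54675), which the authors produced in Affymetrix Expression Console by MAS5 (per the submitters' processing notes, no version named). MAS5 scales each array by 1 factor, and no detection calls came with the values. The number of arrays limits the precision.

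Control probe sets (62) were left out. Symbols came from GEO's platform annotation of 2016 (41091 probe sets with 1 symbol, 1801 with several, 11721 unnamed here) updated by gene ID through RefSeq's GRCh38.p14 table. For each gene the probe set brightest by mean log2(signal + 1) was kept. The 12190 genes whose mean log2 reached the median of all probe sets were tested with limma 3.58.1 in R 4.3.3 (lmFit, eBayes with an intensity trend, two-sided, no covariates, 2 residual and 7.35 prior degrees of freedom). "Rose" and "fell" are used at a Benjamini-Hochberg adjusted p under 0.05 over all tested genes. Fold changes are on the log2(signal + 1) scale, which understates changes of dim genes, and intervals are at 95%.

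The members and lists were chosen with earlier results of these data known. Values on each array are given for called members, for members with non-overlapping groups and an unadjusted p under 0.05, and for SREBF1, SREBF2, INSIG1, SQLE, HMGCS1, FASN, ACACA and SCD; the dim genes, single probe sets and ELOVL6 given by array, and the companion genes that were not called, were chosen after their values were seen. On simulated data (12190 genes) the test found 47 of every 100 genes shifted 1.5-fold and 78 of every 100 shifted 2-fold, with 11 false calls among 136; the simulation assumes the fitted variance trend.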

Additional observations from a re-analysis of the deposited data

How the results depend on the processing

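The direction held under all alternatives tried (11 or 12 per gene, of which the fit over all probe sets was chosen after seeing the data) for 20 of the 35 tested members, including FA2H, TM7SF2, ABHD3, INSIG1, IDI1, PMVK, FDPS, ACLY, SCD, ELOVL5 and SREBF1. Their sizes moved more: with the mean over all probe sets of a gene the log2 difference was 0.033 for IDI1 (0.31 on the brightest probe set), 0.039 for ELOVL5 (0.16), 0.072 for ACLY (0.20) and 0.55 for FA2H (1.01), and that of DHCR7 (0.33) was 0.17 to 0.50 with 1 array left out. Against 125 genes that rose and 58 that fell over all genes, the counts were 0 and 0 without an intensity trend (1686 at an unadjusted p under 0.05, against 2161), 42 and 12 without a filter on dim genes, 83 and 36 after quantile normalization, 26 and 11 with the mean over all probe sets of a gene, and 2 to 189 and 0 to 116 when 1 array was left out; in those fits the lone array of a group is assumed to vary like the others. Among the members, the 1 sterol gene that fell and the 1 fatty acid gene that rose became 0 without the trend, without the filter and with the mean over all probe sets, and the 1 fatty acid gene that fell became 0 without the trend. With 1 array left out, the sterol gene that fell and the fatty acid gene that fell were counted as 0 to 1, the fatty acid gene that rose as 0 and the sterol genes that rose as 0. Under the replicate block (array letter as a covariate) 263 genes rose and 179 fell, and 2 sterol genes rose, INSIG1 (adjusted p = 0.047, range over its alternatives 0.047 to 0.37) and DHCR7 (adjusted p = 0.044, range 0.044 to 0.68). The arrays share only a letter, and a minus b correlated at 0.029 between the groups over the tested genes, so this pairing has no support in the design.

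The sterol median of -0.019 was -0.044 with the mean over all probe sets and -0.049 to 0.0034 with 1 array left out. The fatty acid median of 0.086 was 0.12 after quantile normalization and 0.062 to 0.13 with 1 array left out. Directions that reversed were those of members that were not called. With the mean over all probe sets the log2 differences were 0.10 for LSS, 0.099 for LPIN1, -0.30 for FASN, -0.36 for ACSL4, 0.14 for ACACB and -0.041 for SREBF2, and after quantile normalization 0.036 for GPAM and 0.015 for MVK. With 1 array left out they ranged from -0.076 to 0.038 for LSS, -0.048 to 0.13 for ACACA, -0.068 to 0.046 for SQLE, -0.074 to 0.022 for AGPAT2, -0.019 to 0.069 for SC5D, -0.072 to 0.058 for GPAM, -0.089 to 0.039 for MVK, -0.088 to 0.23 for ACSL4, -0.67 to 0.087 for ELOVL6, -0.055 to 0.16 for DGAT2, -0.091 to 0.49 for SREBF2 and -0.20 to 0.41 for FADS2. The mean over all probe sets includes those under the limit on dim signals. For FASN such a probe set had signals of 15.0 and 14.8 in ING3 cells, against 69.1 and 10.3 in control cells. For ACACB those under the limit had log2 differences of -1.1, 1.4 and 1.4, and all those past it were negative. For LSS, LPIN1 and SREBF2 every probe set was past the limit. The cause of the reversals was not tested. Dim probe sets limit the precision for FA2H, SREBF2 and FADS2.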
